A study of Mus musculus with 6 samples.

Results

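The Wnt pathway genes described here are the secreted Wnt ligands, their Frizzled and Lrp receptors, the secreted antagonists, the R-spondin axis and a small set of target and feedback genes. They were chosen by gene symbol, with earlier results of these data known. Of 56 symbols listed, 55 had a row among the 24062 genes counted in each library: 19 ligands, 12 receptors, 11 secreted antagonists, 8 genes of the R-spondin axis and 5 target and feedback genes. The symbol without a row was Sfrp3, an older name for Frzb, which was counted under its current name.

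RNA was sequenced from cells sorted out of the dorsal pancreatic bud of mouse embryos, the outgrowth of foregut endoderm and surrounding mesenchyme that forms the pancreas. There were 6 libraries, 1 for each group: mesenchyme at E12.5, epithelium at E12.5 and epithelium at E14.5, each from control and from mutant embryos. All groups carried the mTmG reporter, in which cells are red (Tomato) until Cre recombinase turns them green (GFP). Control embryos are labelled mTmG with no other allele. The genotype of the mutant embryos includes mTmG+/-, Nkx2.5-Cre+/-, which makes Cre from the Nkx2-5 gene, and Pbx2+/-, that is 1 mutant copy of Pbx2. Pbx proteins are homeodomain transcription factors that bind DNA together with Hox and Meis partners. Each library came from a pool of sorted fractions, and the labels do not say how many embryos were pooled, which colour was taken as which fraction, or how green cells arose in controls without Cre.

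Levels are in CPM, counts per gene scaled to library size, with trimmed-mean (TMM) factors between libraries. The libraries held 14032569 to 20276045 counts on genes, so 3 counts, the limit that a count of 0 allows, equalled 0.141 to 0.215 CPM. Since each group is 1 library, no difference could be set against a spread between replicates, and each fold compares 2 libraries with an exact 95% Clopper-Pearson interval that covers counting error only. Genes with at least 5 CPM in either library of a pair count as measured, and a measured gene was called higher or lower where its fold was at least 2 and the interval left out 1. A gene under 5 CPM in 1 library of a pair was thus measured only through the library where it was higher. Nkx2-5, which drives the Cre, stood at 41.2 and 66.8 CPM in control and mutant mesenchyme and between 0 and 3.68 CPM in the 4 epithelial libraries. Pbx2 was at 89.9 and 56.01 CPM in mesenchyme, 54.5 and 49.7 CPM in E12.5 epithelium and 34.0 and 47.3 CPM in E14.5 epithelium. The mutant level of Pbx2 was the lower one in both E12.5 pairs and the higher one in E14.5 epithelium, so the E14.5 library is mutant by its label.

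The epithelial libraries held markers of other cell types, and the part of these in the Wnt gene levels was not tested. Over 25 general epithelial genes, such as Epcam and Cdh1, the summed level was 140 and 108 CPM in control and mutant mesenchyme, 4501 and 3899 CPM in E12.5 epithelium and 8339 and 4586 CPM in E14.5 epithelium. Over 29 general mesenchymal genes, such as collagens and Pdgfra, it was 13367 and 11847 CPM in mesenchyme, 6431 and 7472 CPM in E12.5 epithelium and 6851 and 14030 CPM in E14.5 epithelium, and all 29 had reads in all 6 libraries. The epithelial libraries also held leukocyte markers (13 genes, 294 to 463 CPM in sum, against 17.9 and 68.4 CPM in mesenchyme) and endothelial markers (14 genes, 352 to 498 CPM against 101 and 107 CPM), with Erg and Sox17 at 0 in both mesenchymal libraries. In such bulk samples fewer cells of a type and less RNA per cell cannot be told apart.

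Wnt ligands are lipid-modified secreted proteins that bind a Frizzled receptor and, in the canonical branch, an Lrp5 or Lrp6 co-receptor, which stabilises beta-catenin so that it activates genes together with TCF and LEF factors. Other Wnts, of which Wnt5a and Wnt11 are the best known, act mainly through branches that do not need beta-catenin and shape cell polarity and movement. Secreted antagonists bind the ligand (Sfrp proteins, Frzb, Wif1), block the co-receptor (Dkk1 and its relatives) or remove the ligand's lipid (Notum), while R-spondins and Lgr receptors relieve the removal of Frizzled by the ubiquitin ligases Znrf3 and Rnf43. In the embryonic pancreas the pathway is known to act in both the mesenchyme and the epithelium.

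The promoters of a few genes are shown first, since the labelled mutation touches a transcription factor and the genes below moved in different directions. The mouse RefSeq table (GRCm38.p6, the assembly of mm10) held promoters for 36 of the 55 genes, 44 entries in all, and the 250 bases before the start were searched on both strands for the TCF and LEF core CTTTGA, the PBX with HOX motif TGATTNAT and the MEIS and PKNOX core TGACAG. The TCF and LEF core was in 6 of 44 entries (13.6%, against 13.8% of all 32851 promoters), in Dkk1, Frzb, Fzd1, Lef1, Wnt11 and Wnt5b. TGATTNAT was in 1 of 44 (2.27%, against 2.82%), that of Axin2, and TGACAG in 5 of 44 (11.4%, against 15.9%), in Lef1, Nkd1, Wnt1, Wnt3 and Wnt4. The shares were thus close to or below those of all promoters, and a match describes letters only. The sequences of 4 genes with a match and of Rspo1, which has none in its window and gave the largest called genotype fold in mesenchyme, run 5′ to 3′ on each gene's strand, with matches in capitals. They were picked after matches and levels were known, and none overlaps an annotated exon. Axin2 (chr11:108920099-108920348, plus strand) has its match on the opposite strand, 172 bases before the start. In Nkd1 (chr8:88527383-88527632, plus strand) TGACAG lies on the opposite strand at 61 bases. Wnt5b (chr6:119449387-119449636, minus strand) and Wnt11 (chr7:98834862-98835111, plus strand) carry CTTTGA at 71 and 50 bases, in Wnt11 on the opposite strand; their further RefSeq entries hold none of the searched motifs. The Nkd1 and Wnt5b windows lie inside the annotated gene, in intron sequence before an internal start. The Rspo1 window is chr4:124986180-124986429 on the plus strand.
Axin2: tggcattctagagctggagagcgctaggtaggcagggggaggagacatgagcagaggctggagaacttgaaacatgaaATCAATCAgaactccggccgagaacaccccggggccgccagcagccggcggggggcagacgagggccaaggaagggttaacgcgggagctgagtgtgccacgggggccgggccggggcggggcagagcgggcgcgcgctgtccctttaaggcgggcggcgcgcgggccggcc
Nkd1: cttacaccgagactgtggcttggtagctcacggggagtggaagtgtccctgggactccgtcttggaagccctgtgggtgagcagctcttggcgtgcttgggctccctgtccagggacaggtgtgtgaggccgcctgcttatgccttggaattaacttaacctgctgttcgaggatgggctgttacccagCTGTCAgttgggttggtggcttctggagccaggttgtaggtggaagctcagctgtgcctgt
Wnt5b: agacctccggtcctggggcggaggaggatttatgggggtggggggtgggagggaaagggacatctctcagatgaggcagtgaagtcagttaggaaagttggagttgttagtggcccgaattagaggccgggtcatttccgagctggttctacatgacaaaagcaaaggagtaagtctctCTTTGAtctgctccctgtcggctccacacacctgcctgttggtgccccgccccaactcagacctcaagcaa
Wnt11: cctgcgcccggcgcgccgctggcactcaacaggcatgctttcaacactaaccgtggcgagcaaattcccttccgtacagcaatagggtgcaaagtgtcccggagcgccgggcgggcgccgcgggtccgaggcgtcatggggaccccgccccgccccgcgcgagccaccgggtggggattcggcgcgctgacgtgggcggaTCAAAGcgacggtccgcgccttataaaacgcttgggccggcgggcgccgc
Rspo1: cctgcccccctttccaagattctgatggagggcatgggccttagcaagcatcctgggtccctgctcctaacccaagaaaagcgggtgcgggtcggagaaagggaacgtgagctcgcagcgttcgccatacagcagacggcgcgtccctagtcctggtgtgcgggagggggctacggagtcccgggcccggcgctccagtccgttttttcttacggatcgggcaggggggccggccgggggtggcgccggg

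Of the 55 genes, 35 reached 5 CPM in at least 1 library, 20 did not, and 3 of these (Wnt3a, Wnt10b and Dkk4) had no read in any library. By class, 7 of 19 ligands, 11 of 12 receptors, 7 of 11 antagonists, 5 of 8 genes of the R-spondin axis and all 5 target and feedback genes reached it. In all, 31 were called in at least 1 of 7 comparisons between pairs of libraries.

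**Figure D1:**
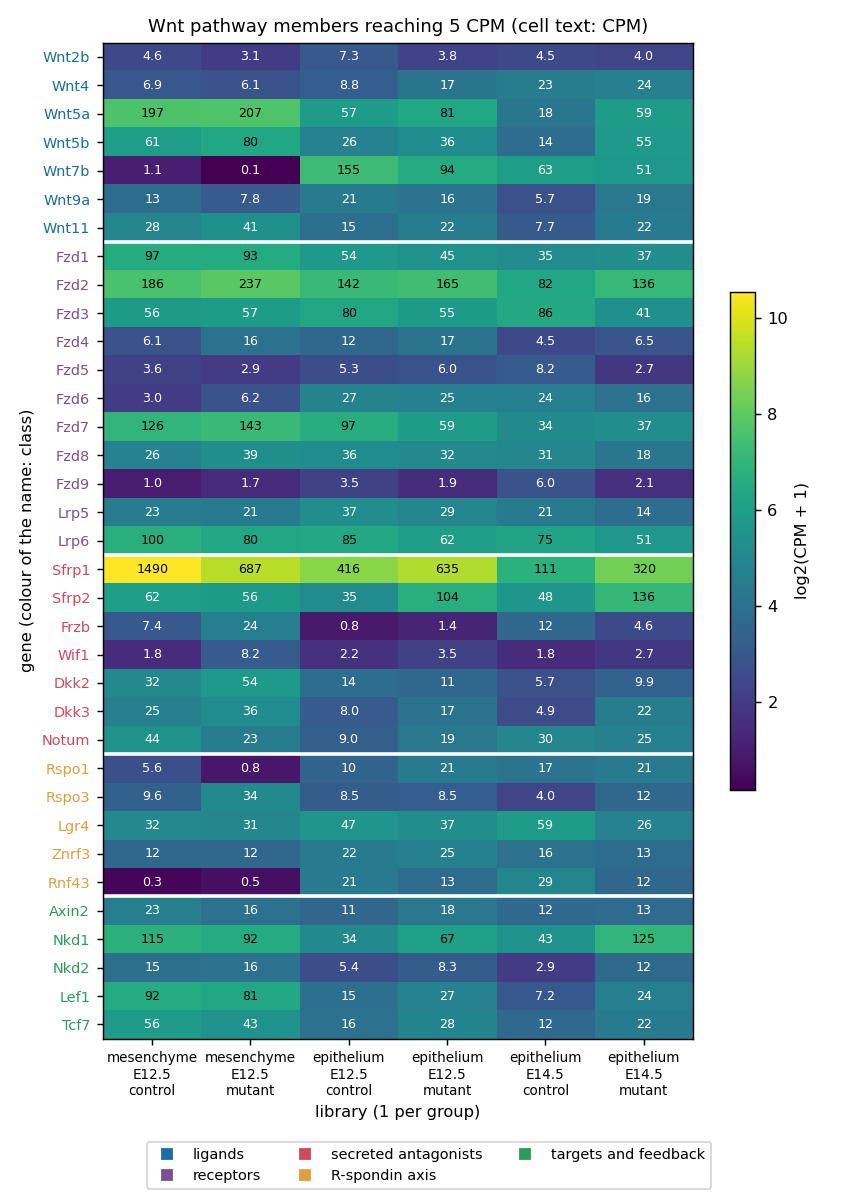
Level of the 35 Wnt pathway genes that reached 5 CPM in at least 1 library. Columns are the 6 libraries, rows are genes grouped by class (colour of the name), cell text is CPM and colour is log2(CPM + 1); Sfrp1 in control mesenchyme is the highest cell at 1490 CPM, and Wnt7b and Rnf43 are near 0 in both mesenchymal libraries.

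Among the ligands, mesenchyme held mostly Wnt5a and Wnt5b, and epithelium held Wnt7b. Wnt5a (chromosome 14, 28504750 to 28527448), the chief ligand of the branch without beta-catenin, stood at 197 and 207 CPM in control and mutant mesenchyme, 57.5 and 81.1 CPM in E12.5 epithelium and 17.9 and 58.7 CPM in E14.5 epithelium. Its close relative Wnt5b (chromosome 6, 119432531 to 119544347) was at 61.0 and 80.0 CPM in mesenchyme, 26.1 and 35.9 CPM in E12.5 epithelium and 13.8 and 54.7 CPM in E14.5 epithelium. Both were highest in mutant mesenchyme and lowest in control epithelium at E14.5. Wnt7b (chromosome 15, 85535437 to 85582473), a ligand of epithelia, was near 0 in mesenchyme and highest in control epithelium at E12.5, with 1.07 and 0.129 CPM in mesenchyme, 155 and 93.8 CPM in E12.5 epithelium and 62.8 and 51.2 CPM in E14.5 epithelium. Wnt7b shares 324 exon bases with AU022754 on the opposite strand, and whether the counting used strand is not given in the sources used here.

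Wnt11, which like Wnt5a acts in cell movement, was at 28.3 and 40.9 CPM in mesenchyme, 14.6 and 22.5 CPM in E12.5 epithelium and 7.74 and 21.6 CPM in E14.5 epithelium. In all 3 pairs the mutant was the higher one for Wnt5a, Wnt5b and Wnt11, though for Wnt5a in mesenchyme the interval of the fold held 1 (1.05-fold, 0.998 to 1.10). Wnt9a stood at 13.4 and 7.85 CPM in mesenchyme, 21.5 and 16.4 CPM in E12.5 epithelium and 5.68 and 19.2 CPM in E14.5 epithelium, so its mutant level was lower at E12.5 and higher at E14.5. Wnt4, known from the urogenital tract, was at 6.91 and 6.11 CPM in mesenchyme, 8.76 and 17.3 CPM in E12.5 epithelium and 22.5 and 24.5 CPM in E14.5 epithelium. Wnt2b lay between 3.09 and 7.30 CPM and was called in no comparison. The other 12 ligands stayed at 2.69 CPM or less in every library. Of these, Wnt2 had reads in the E12.5 and E14.5 mutant epithelium (2.63 and 0.431 CPM) and none elsewhere, and Wnt3 had none in control epithelium at E14.5 and 0.671 to 2.69 CPM elsewhere.

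Levels of different genes were compared per kilobase of exon. On that scale Wnt5a and Wnt5b made up 40.5% and 36.9% of the summed ligand level in control mesenchyme and 36.6% and 41.6% in mutant mesenchyme. Wnt7b made up 49.2% and 31.4% in control and mutant E12.5 epithelium, and 41.4% and 17.7% at E14.5. In E14.5 epithelium the leading ligand thus differed, with Wnt7b first in the control, followed by Wnt4 (17.3%), and Wnt5b first in the mutant (34.9%). The summed ligand level per kilobase lay between 59.1 and 72.4 in 5 libraries and at 31.0 in control epithelium at E14.5.

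**Figure D2:**
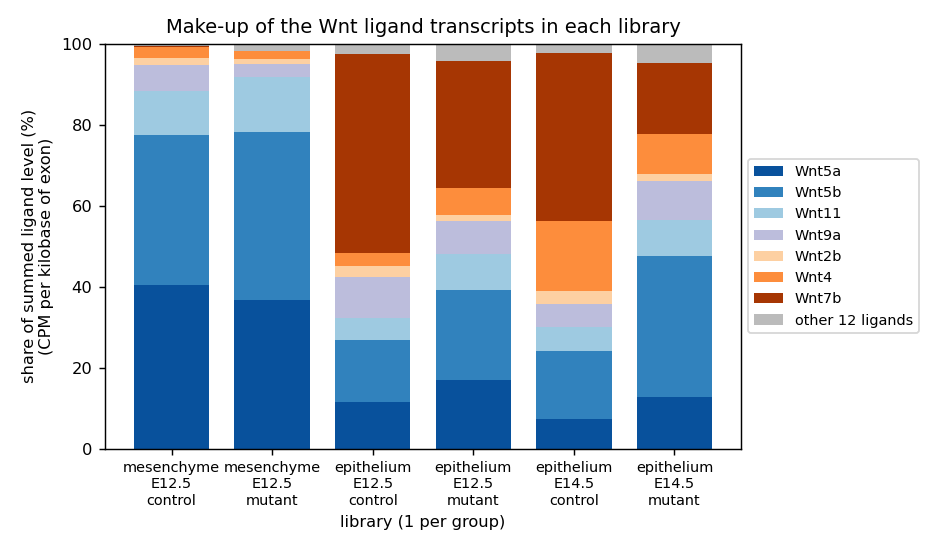
Share of each Wnt ligand in the summed ligand level (CPM per kilobase of exon, in percent) of each of the 6 libraries, with the 12 ligands under 5 CPM stacked together. Wnt5a and Wnt5b fill most of both mesenchymal bars, and Wnt7b is 41.4% of the control and 17.7% of the mutant epithelium at E14.5.

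Frizzled and Lrp receptors were present in both fractions. Fzd2 (chromosome 11, 102604396 to 102608058) was the highest receptor per kilobase in all 6 libraries, with 33.2% to 51.7% of the class. Its level was 186 and 237 CPM in mesenchyme, 142 and 165 CPM in E12.5 epithelium and 81.9 and 136 CPM in E14.5 epithelium, and it was called in no comparison. Fzd7 was at 126 and 143 CPM in mesenchyme, 96.98 and 58.9 CPM in E12.5 epithelium and 33.8 and 36.9 CPM in E14.5 epithelium. Fzd1 was at 96.5 and 92.5 CPM in mesenchyme, 54.2 and 44.6 CPM in E12.5 epithelium and 35.3 and 37.3 CPM in E14.5 epithelium. All 3 were highest in the mesenchymal libraries and lowest in the E14.5 libraries.

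The other Frizzleds did not share 1 order. Fzd6, a receptor of the polarity branch and the 1 Frizzled called lower in mesenchyme in both fraction comparisons, was at 3.02 and 6.17 CPM in mesenchyme, 27.4 and 25.3 CPM in E12.5 epithelium and 24.5 and 15.9 CPM in E14.5 epithelium. Fzd3, its relative, was at 56.1 and 56.5 CPM in mesenchyme, 79.7 and 54.9 CPM in E12.5 epithelium and 85.8 and 40.7 CPM in E14.5 epithelium. Fzd5 was low throughout, at 3.56 and 2.89 CPM in mesenchyme, 5.28 and 5.98 CPM in E12.5 epithelium and 8.22 and 2.66 CPM in E14.5 epithelium. For Fzd3 and Fzd5 the control epithelium at E14.5 was the highest library and the mutant of the same stage the lowest. Fzd9 likewise peaked there, with 1.01 and 1.67 CPM in mesenchyme, 3.53 and 1.91 CPM in E12.5 epithelium and 6.03 and 2.08 CPM in E14.5 epithelium. Fzd4, which also serves as a receptor for the non-Wnt ligand norrin, was at 6.10 and 15.9 CPM in mesenchyme, 11.7 and 16.8 CPM in E12.5 epithelium and 4.52 and 6.54 CPM in E14.5 epithelium. The co-receptor Lrp5 was at 22.9 and 20.7 CPM in mesenchyme, 37.3 and 28.7 CPM in E12.5 epithelium and 21.4 and 13.9 CPM in E14.5 epithelium. Lrp6 (51.3 to 99.8 CPM) and Fzd8 (18.0 to 38.9 CPM) were called in no comparison, and Fzd10 stayed at 2.80 CPM or less.

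Of the secreted antagonists, Sfrp1 was the highest per kilobase in all 6 libraries, with Sfrp2 close to it at E14.5. Sfrp1 (chromosome 8, 23411502 to 23449632), which binds Wnts through a Frizzled-like domain, was at 1490 and 687 CPM in control and mutant mesenchyme, 416 and 635 CPM in E12.5 epithelium and 111 and 320 CPM in E14.5 epithelium. The mutant was thus lower in mesenchyme and higher in both epithelial pairs. Per kilobase it made up 83.7% and 68.5% of the antagonist level in control and mutant mesenchyme, and 36.4% and 45.9% in E14.5 epithelium, where Sfrp2 made up 32.3% and 39.6%. Because of Sfrp1 the summed antagonist level was 1663 CPM in control and 890 CPM in mutant mesenchyme. Sfrp2 (chromosome 3, 83766321 to 83774316) was at 62.2 and 56.3 CPM in mesenchyme, 35.4 and 104 CPM in E12.5 epithelium and 48.5 and 136 CPM in E14.5 epithelium, with both epithelial mutants above all other libraries. Frzb (chromosome 2, 80411970 to 80447625), a further Frizzled-related protein, was at 7.38 and 24.4 CPM in mesenchyme, 0.848 and 1.38 CPM in E12.5 epithelium and 11.8 and 4.60 CPM in E14.5 epithelium. Its order was unlike that of Sfrp1 in each pair except E12.5 epithelium. Wif1, which binds Wnts directly, was at 1.81 and 8.17 CPM in mesenchyme, 2.17 and 3.55 CPM in E12.5 epithelium and 1.85 and 2.66 CPM in E14.5 epithelium.

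Dkk3, the member of the Dickkopf family least tied to Lrp binding, was at 24.8 and 36.0 CPM in mesenchyme, 7.96 and 16.6 CPM in E12.5 epithelium and 4.86 and 22.1 CPM in E14.5 epithelium. Dkk2 was at 32.3 and 53.8 CPM in mesenchyme, 13.9 and 11.4 CPM in E12.5 epithelium and 5.68 and 9.91 CPM in E14.5 epithelium. Dkk3 was higher in the mutant of each pair, and Dkk2 in the mutant of all but E12.5 epithelium. Notum (chromosome 11, 120653788 to 120661175), an enzyme that removes the lipid from Wnts and is itself a target of the pathway, was at 44.0 and 22.8 CPM in mesenchyme, 8.996 and 18.8 CPM in E12.5 epithelium and 30.5 and 25.1 CPM in E14.5 epithelium. Sfrp5 reached 3.42 CPM, Dkk1 1.16 CPM and Sfrp4 0.805 CPM at most.

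The R-spondins were low in level. Rspo1 (chromosome 4, 124986430 to 125009099) was at 5.57 and 0.772 CPM in mesenchyme, 10.2 and 21.02 CPM in E12.5 epithelium and 16.6 and 20.6 CPM in E14.5 epithelium. Rspo3 (chromosome 10, 29452416 to 29535867) was at 9.59 and 33.9 CPM in mesenchyme, 8.53 and 8.54 CPM in E12.5 epithelium and 4.04 and 11.6 CPM in E14.5 epithelium. The pair moved in opposite directions in the mutant mesenchyme, where Rspo3 made up 60.0% of the level of the axis per kilobase against 23.2% in the control. Rspo2 and Rspo4 stayed at 3.37 CPM or less.

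The R-spondin receptor Lgr4 was at 32.4 and 30.6 CPM in mesenchyme, 47.0 and 37.5 CPM in E12.5 epithelium and 59.3 and 26.4 CPM in E14.5 epithelium. Rnf43 (chromosome 11, 87662722 to 87735539), a ubiquitin ligase that removes Frizzled from the cell surface, was at 0.268 and 0.514 CPM in mesenchyme, 21.2 and 13.5 CPM in E12.5 epithelium and 29.4 and 11.6 CPM in E14.5 epithelium. Its relative Znrf3 was at 11.8 and 11.7 CPM in mesenchyme, 21.5 and 25.2 CPM in E12.5 epithelium and 16.0 and 13.2 CPM in E14.5 epithelium. Rnf43 was therefore near the floor in mesenchyme, where Znrf3 was well above it. Lgr5 reached 4.45 CPM at most, in control epithelium at E14.5, and 0.646 CPM in the mutant of that stage.

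The target and feedback genes were highest in mesenchyme with 1 exception. Axin2, a negative regulator induced by beta-catenin in many tissues, was at 23.3 and 16.0 CPM in mesenchyme, 11.02 and 18.3 CPM in E12.5 epithelium and 12.1 and 12.8 CPM in E14.5 epithelium. Lef1 (chromosome 3, 131110471 to 131224356), a DNA-binding partner of beta-catenin, was at 91.8 and 80.8 CPM in mesenchyme, 14.6 and 26.5 CPM in E12.5 epithelium and 7.19 and 24.0 CPM in E14.5 epithelium. Tcf7, of the same family, was at 56.5 and 43.2 CPM in mesenchyme, 15.8 and 27.7 CPM in E12.5 epithelium and 11.99 and 21.7 CPM in E14.5 epithelium. In these 3 genes the control exceeded the mutant in mesenchyme and the mutant exceeded the control in both epithelial pairs, within counting error for Axin2 at E14.5. Nkd1, a feedback inhibitor acting on Dishevelled, was the exception, at 115 and 92.2 CPM in mesenchyme, 34.0 and 67.3 CPM in E12.5 epithelium and 43.0 and 125 CPM in E14.5 epithelium. Its highest library was the mutant epithelium at E14.5. Nkd2 was at 15.2 and 15.8 CPM in mesenchyme, 5.37 and 8.28 CPM in E12.5 epithelium and 2.94 and 12.4 CPM in E14.5 epithelium.

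**Figure D3:**
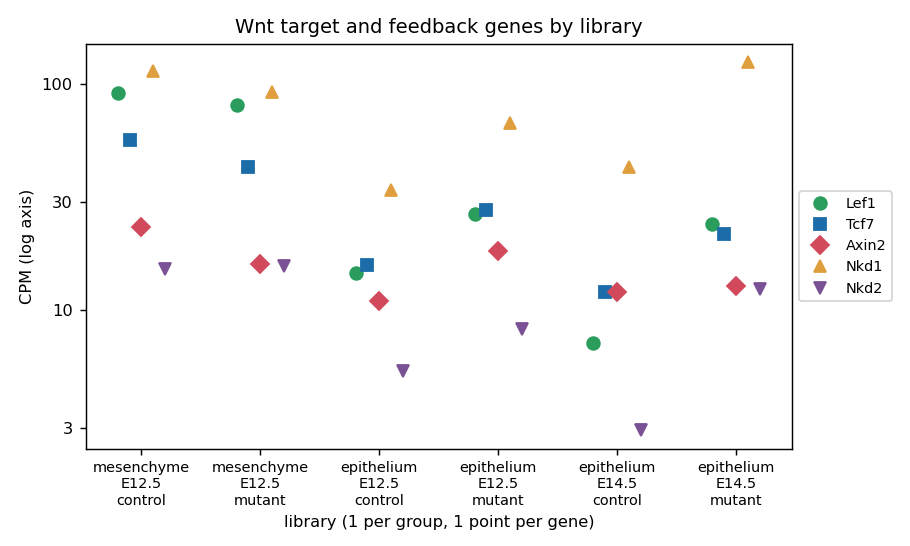
Level of the 5 target and feedback genes in CPM (log axis) in each of the 6 libraries, 1 point per gene and library. Lef1 and Tcf7 sit highest in both mesenchymal libraries and lowest in control epithelium at E14.5, and Nkd1 peaks at 125 CPM in mutant epithelium at E14.5.

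The fraction and stage comparisons share libraries with the genotype comparisons at the same ages, so their values are given side by side only. Between the control fractions at E12.5, 12 of 33 measured Wnt pathway genes were called higher in mesenchyme and 3 lower, where 7.0% and 13.6% of all measured genes were. All 5 target and feedback genes were higher in mesenchyme, from Axin2 (2.11-fold, 1.784 to 2.503) to Lef1 (6.30-fold, 5.57 to 7.16), with a class median log2 ratio of 1.76 against 0.03 over all genes. Of 6 measured antagonists 5 were higher, Frzb by 8.70-fold (5.26 to 15.2) and Notum by 4.89-fold (4.16 to 5.78), along with Sfrp1, Dkk2 and Dkk3. Of the ligands, Wnt5a was 3.43-fold higher (3.21 to 3.67) and Wnt5b 2.34-fold higher (2.10 to 2.60). The 3 genes lower in mesenchyme were Wnt7b by 144-fold (88.6 to 252), Rnf43 by 79.2-fold (30.7 to 292) and Fzd6 by 9.08-fold (6.70 to 12.6). In the same comparison the median log2 ratio over the general mesenchymal genes was 1.22, with 6431 CPM of them in the epithelial library.

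Between the mutant fractions at E12.5, 10 of 33 were called higher in mesenchyme and 8 lower, against 5.42% and 12.9% of all measured genes. Frzb was 17.7-fold higher (11.4 to 28.9), Dkk2 4.71-fold (3.99 to 5.58) and Rspo3 3.97-fold (3.27 to 4.84). Of the 5 target and feedback genes 1 was called, Lef1 (3.04-fold, 2.72 to 3.42), and the class median log2 ratio was 0.64. Rspo1 was lower in mutant mesenchyme than in mutant epithelium by 27.2-fold (15.4 to 53.3), and Wnt7b by 729-fold (201 to 6025), where the mesenchymal level rests on 2 reads. Sfrp1, called in the control fractions, stood at 687 and 635 CPM in the mutant fractions. The median of general mesenchymal genes was 0.70. Whether the fraction difference itself differed by genotype was not tested.

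Between control epithelia, 3 of 34 measured genes were called higher at E14.5 than at E12.5 and 9 lower, against 6.53% and 11.2% of all measured genes. Frzb was 14.0-fold higher (8.59 to 24.1), Notum 3.39-fold (2.85 to 4.04) and Wnt4 2.57-fold (2.14 to 3.10). The lower genes were led by Wnt9a (3.78-fold, 2.98 to 4.83), Sfrp1 (3.74-fold, 3.54 to 3.94) and Wnt5a (3.21-fold, 2.81 to 3.69), and included Wnt7b, Fzd4, Fzd7, Dkk2, Rspo3 and Lef1. Between mutant epithelia none of 31 was called higher at E14.5, where 6.27% of all measured genes were, and 3 were lower (5.89% of all genes), namely Fzd4 (2.57-fold, 2.02 to 3.31), Fzd5 (2.25-fold, 1.52 to 3.39) and Lrp5 (2.07-fold, 1.75 to 2.47). The general mesenchymal median was -0.45 between control stages and 0.51 between mutant stages. In the same order the medians were -1.61 and -0.13 for splanchnic mesenchyme genes and -0.82 and 1.19 for smooth muscle markers. They were -0.55 and -0.66 for endothelial markers and 0.89 and 0.11 for general epithelial genes. The part of these markers in the folds was not tested.

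In E12.5 mesenchyme, mutant against control, 5 of 30 measured Wnt pathway genes were called higher and 2 lower, where 1.96% and 3.5% of all measured genes were. Wif1 was 4.51-fold higher (2.96 to 7.11), Rspo3 3.53-fold (2.93 to 4.28), Frzb 3.31-fold (2.67 to 4.13), Fzd4 2.60-fold (2.04 to 3.35) and Fzd6 2.04-fold (1.42 to 2.98). Rspo1 was 7.21-fold lower (3.917 to 14.52) and Sfrp1 2.17-fold lower (2.12 to 2.22). Wif1, Fzd6 and Rspo1 reached 5 CPM only in the library where they were higher. With a 20 CPM minimum the calls left were Rspo3, Frzb and Sfrp1, where 72 and 124 of all 8648 genes were called higher and lower. No ligand and no target or feedback gene was called. The 5 target and feedback genes had a median log2 ratio of -0.32, and Axin2 was 1.45-fold lower (1.23 to 1.72). Over all 30 the median was 0.00 against -0.01 for all genes, and the called genes lay on both sides.

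Markers of other cells differed in the same pair. Of 8 measured mesothelial markers 2 were lower in the mutant and none higher, with a summed level of 292 CPM in control and 189 CPM in mutant mesenchyme, Msln at 0 in the control and C3 at 0 in both. Their log2 ratios ran from -1.73 to 0.69. Of 8 smooth muscle markers 3 were lower (424 and 314 CPM in sum), all 5 measured leukocyte markers were lower (68.4 and 17.9 CPM) and all 3 measured erythroid markers were lower (65.7 and 2.12 CPM). Of 4 measured endothelial markers 2 were higher (101 and 107 CPM), and of 2 measured pancreatic epithelial genes 1 (28.4 and 73.1 CPM, with Ptf1a, Nkx6-1 and Nkx2-2 at 0 in the mutant and Pdx1, Foxa2 and Onecut1 at 0 in the control). Of 4 neuronal and neural crest markers 1 was higher and 1 lower (117 and 96.98 CPM, log2 ratios from -4.17 to 2.86). Their part in the Wnt pathway ratios was not tested.

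In E12.5 epithelium, mutant against control, 4 of 32 measured genes were called higher and none lower, against 1.79% and 3.21% of all measured genes. Without the 5 CPM minimum the counts were 8 higher and 3 lower, where 1080 and 1296 of all 17235 genes with a read were. Sfrp2 was 2.93-fold higher (2.685 to 3.201), Notum 2.09-fold (1.73 to 2.52), Dkk3 2.09-fold (1.71 to 2.55) and Rspo1 2.06-fold (1.73 to 2.46). All 5 target and feedback genes had ratios above 1 and under 2, from Nkd2 (1.54-fold, 1.187 to 2.004) to Nkd1 (1.98-fold, 1.80 to 2.18), and their median log2 ratio was 0.81 against 0.00 for all genes. Wnt7b was 1.65-fold lower (1.55 to 1.76) and Wnt4 1.97-fold higher (1.63 to 2.39), neither of them called. The median was 0.25 over general mesenchymal genes and 0.68 over the 8 measured splanchnic mesenchyme genes. Over all 10 splanchnic genes listed, which include Nkx2-5, the sums were 473 and 796 CPM. Nkx2-5 itself was below the minimum and is not in that median. Smooth muscle markers were at 0.86 (175 and 346 CPM) and general epithelial genes at -0.14. Relative to the general mesenchymal median, Sfrp2 was the 1 gene of the 4 still at 2-fold.

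In E14.5 epithelium, mutant against control, 11 of 33 measured genes were called higher and 6 lower, against 9.64% and 6.4% of all measured genes. Of 6 measured ligands 4 were higher: Wnt5b (3.97-fold, 3.39 to 4.66), Wnt9a (3.37-fold, 2.63 to 4.37), Wnt5a (3.29-fold, 2.85 to 3.79) and Wnt11 (2.79-fold, 2.242 to 3.498). Wnt7b was 1.23-fold lower (1.11 to 1.35) and Wnt4 1.09-fold higher (0.931 to 1.27), an interval that holds 1. Among the antagonists, Dkk3 was 4.55-fold higher (3.503 to 5.973), Sfrp1 2.88-fold (2.71 to 3.05) and Sfrp2 2.80-fold (2.57 to 3.06), while Frzb was 2.58-fold lower (1.93 to 3.49). Rspo3 was 2.88-fold higher (2.12 to 3.95). Of the target and feedback genes Nkd2 (4.22-fold, 3.005 to 6.037), Lef1 (3.33-fold, 2.67 to 4.19) and Nkd1 (2.91-fold, 2.65 to 3.19) were higher, Tcf7 was at 1.81-fold (1.497 to 2.192) and Axin2 at 1.06-fold (0.856 to 1.31).

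Besides Frzb, the lower genes were 3 receptors and 2 genes of the R-spondin axis. Fzd5 was 3.09-fold lower (2.12 to 4.60), Fzd9 2.89-fold (1.88 to 4.57) and Fzd3 2.11-fold (1.91 to 2.34). Rnf43 was 2.53-fold lower (2.10 to 3.05) and Lgr4 2.25-fold lower (1.99 to 2.55). No receptor was called higher, and the receptor median log2 ratio was -0.62 where that of the ligands was 1.60. Of the genes called in this pair, Dkk3, Rspo3, Nkd2, Frzb, Fzd5 and Fzd9 reached 5 CPM only in the library where they were higher.

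Markers of several cell types differed in the E14.5 pair. Of 28 measured general mesenchymal genes 20 were higher in the mutant with a median log2 ratio of 1.17, of 9 splanchnic mesenchyme genes 8 (2.28; 262 and 714 CPM in sum, with Nkx2-5 and Foxf2 at 0 in the control) and of 10 smooth muscle markers 8 (2.88; 151 and 781 CPM, with Myocd at 0 in the control). Of 10 measured neuronal and neural crest markers 7 were higher (1.4; 187 and 349 CPM, with Dbh at 0 in the control). All 3 measured skeletal muscle markers were higher (3.25; 6.30 and 26.4 CPM), as were both erythroid ones (6.10 and 28.6 CPM), and of 13 endothelial markers 4 were higher and 1 lower (0.13; 377 and 352 CPM). Of 11 leukocyte markers 2 were higher and 2 lower (0.34; 452 and 463 CPM). Of 24 general epithelial genes 12 were lower (median -0.96) and of 11 pancreatic epithelial genes 6 (-1.07; 6881 and 2757 CPM in sum). Relative to the general mesenchymal median, 1 of 33 measured Wnt pathway genes was higher in the mutant, Dkk3, and 17 were lower. Among all 12145 measured genes 195 were higher and 7898 lower on that scale. Relative to the general epithelial median, 20 Wnt pathway genes were higher and none lower, and the 6 genes lower on the TMM scale all dropped out. Among all 12145 measured genes 5390 were higher and 148 lower on that scale. Genotype and marker content cannot be told apart in these libraries.

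**Figure D4:**
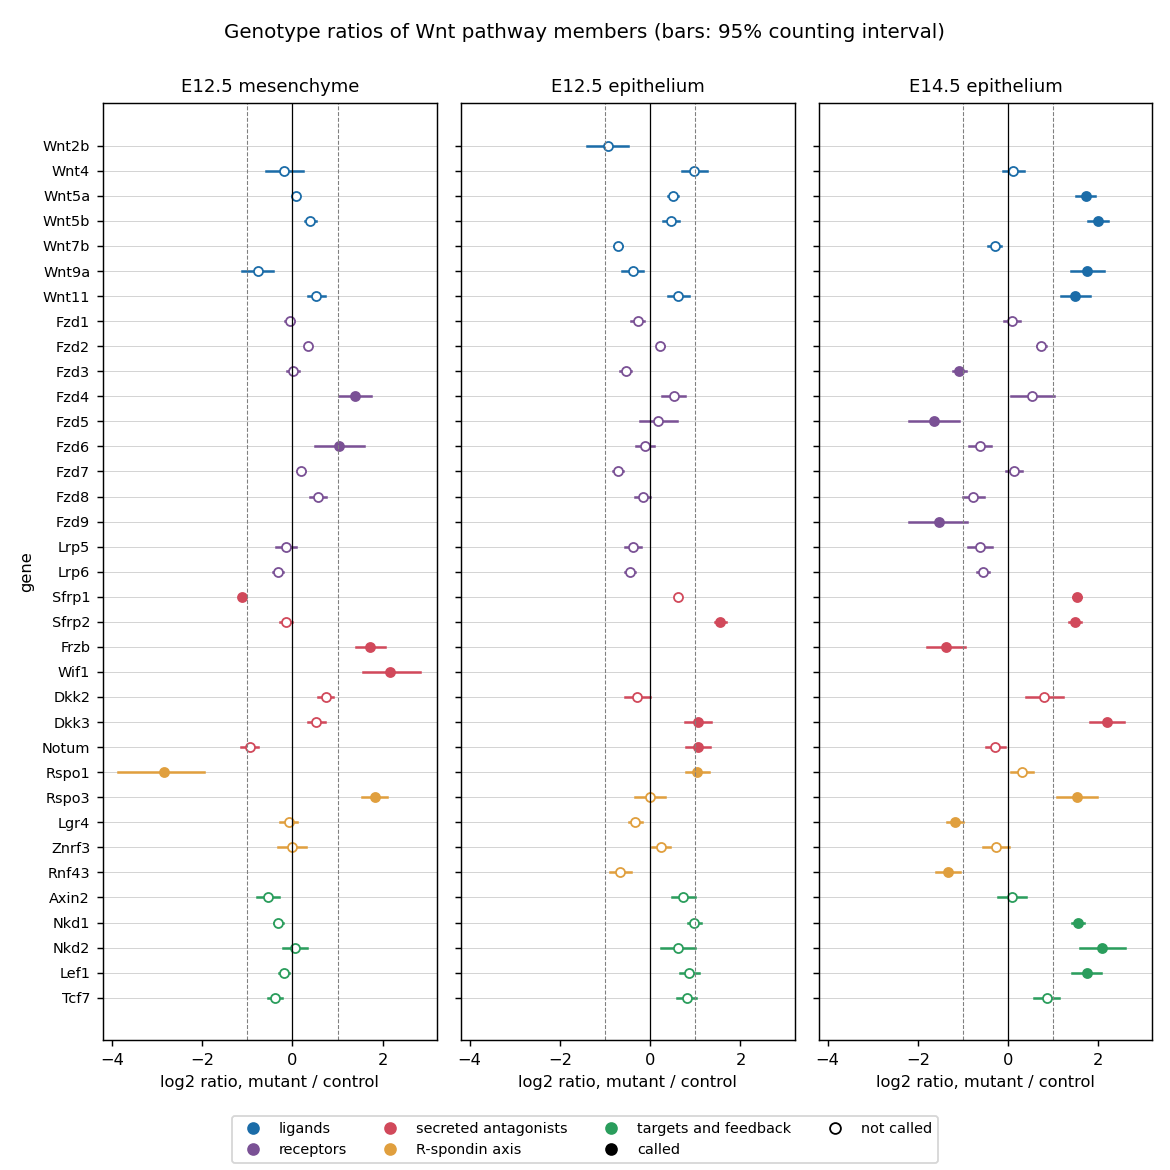
Log2 ratio of mutant to control for the Wnt pathway genes that reached 5 CPM, in E12.5 mesenchyme, E12.5 epithelium and E14.5 epithelium; bars are 95% counting intervals, filled points are called, dashed lines mark 2-fold, and genes without a point were not measured in that pair. Sfrp1 is lower in mesenchyme and higher at E14.5, and Frzb the reverse.

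The difference between control fractions at E12.5 and the genotype difference at E14.5 share no library, and 32 Wnt pathway genes were measured in both. Of the 12 genes higher in control mesenchyme, 7 were higher in the mutant epithelium at E14.5 and 1, Frzb, was lower, where 436 of 686 and 9 were over all genes, so the share of Wnt pathway genes was near the background. Of the 3 lower in control mesenchyme, none was higher and 1, Rnf43, was lower at E14.5, where 94 and 390 of 1521 were over all genes. Pearson's r was 0.45 and Spearman's rho 0.47 across these genes, against 0.42 and 0.49 over 11576 genes measured in both. Genes are not independent replicates, and each point shares its libraries with all others. Wnt9a, Wnt11, Sfrp2 and Rspo3 were called higher at E14.5 without being called higher in mesenchyme. Frzb and Notum were called higher in mesenchyme with an E14.5 ratio below 1, and Wnt7b and Rnf43 had the lowest ratios between the fractions.

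**Figure D5:**
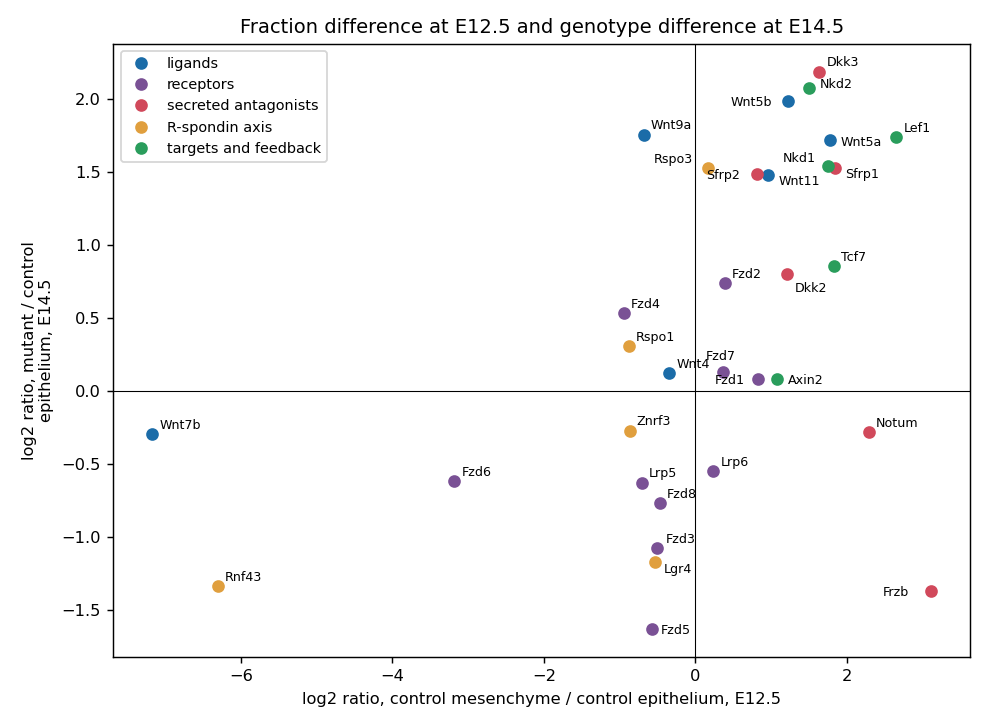
For 32 Wnt pathway genes, the log2 ratio of control mesenchyme to control epithelium at E12.5 (x axis) against the log2 ratio of mutant to control epithelium at E14.5 (y axis); colour is the class. Lef1, Wnt5a, Sfrp1, Nkd1, Nkd2, Wnt5b and Dkk3 lie at the upper right, and Frzb lies at the lower right, with Notum and Lrp6 nearer to 0.

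Genes of the pathway outside the 5 classes were followed in 4 further lists. Of 20 genes that carry the signal inside the cell, from Dishevelled to beta-catenin and its cofactors, 20 were measured in each E12.5 genotype pair with none called, and at E14.5 1 of 19, the cofactor Pygo1, was called, 2.98-fold higher in the mutant (2.29 to 3.92). Over all measured genes 9.64% were called higher and 6.4% lower at E14.5, so that count is near the background. Of 21 transport and co-receptor genes, none of 18 was called in either E12.5 pair. At E14.5, 4 of 18 were higher, namely the polarity genes Prickle2 (4.97-fold, 3.90 to 6.40) and Prickle1 (2.08-fold, 1.86 to 2.34), Reck (3.32-fold, 2.91 to 3.78) and the Wnt secretion factor Wls (2.12-fold, 1.99 to 2.26). In the same pair 1, Celsr1, was lower (2.88-fold, 2.07 to 4.06). The share higher was 22.2% against 9.64% of all measured genes, and the share lower 5.56% against 6.4%. Of 6 other inhibitors, 2 were measured in mesenchyme, with none called, and 3 in each epithelial pair. At E12.5 Sostdc1 was 3.31-fold higher in mutant epithelium (2.30 to 4.84), 33.3% against 1.79% of all measured genes. At E14.5 Sostdc1 was 19.6-fold lower (9.69 to 46.0), Apcdd1 5.64-fold higher (4.54 to 7.08) and Igfbp4 2.58-fold higher (2.51 to 2.64). The shares there were 66.7% higher and 33.3% lower, against 9.64% and 6.4%. Of 12 other reported targets, 6 were measured in mesenchyme and 7 in each epithelial pair. Cd44 was 3.71-fold higher in mutant mesenchyme (2.48 to 5.70), 16.7% against 1.96% of all measured genes. None of 7 was called in E12.5 epithelium. At E14.5 Tnfrsf19 was 2.75-fold higher (2.37 to 3.21) and Myc 2.68-fold lower (2.54 to 2.83), 14.3% each against 9.64% and 6.4%. The marker differences given for the E14.5 pair stand beside these genes as well.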

How the data were processed

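Each library came as 1 deposited table of counts by gene symbol; the authors did not normalise them, as whole values and unequal totals per file show. The submitters' processing notes name mm10, Cufflinks 2.2.1 and Cuffdiff 2.2.1. Neither the aligner and counter nor the annotation and use of strand is given in the sources used here. Each table ends with 5 summary lines, left out of totals: 4.69% to 8.84% of reads were on no gene, 1.53% to 1.72% were ambiguous and 13.72% to 20.05% aligned to several places. The table of control epithelium at E12.5 is named in another form than the other 5.

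Counts were scaled to CPM with TMM factors (edgeR 4.0.16, R 4.3.3). With 1 library per group no test across samples was made. Folds have exact Clopper-Pearson intervals, computed with scipy 1.17.1 in Python 3.11.15. As no molecular identifiers mark separate molecules, intervals and floors describe counting error alone. Positions and exon lengths are from GENCODE M21 on the assembly of mm10. The calculation was tested on simulated counts.

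Genes were named if they reached 5 CPM in at least 1 library and were called in at least 1 comparison, or were among the 3 highest of their class per kilobase. The others are given by range. Of the 4 further pathway lists, up to 4 called genes per genotype pair were to be named; at E14.5 all 11 that were called are, a choice made after their values were seen. The genes, classes and lists were chosen with earlier results of these data known. Alternatives were DESeq2 1.42.0 size factors, plain CPM, no CPM minimum, a minimum of 20 CPM, a 1.5-fold threshold and, for the epithelial pairs, scaling to the median ratio of the general epithelial genes or, chosen after seeing the data, of the general mesenchymal genes. Part of the labelled genotype is not reported here.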

Additional observations from a re-analysis of the deposited data

Results flagged for a closer look

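In 3 of the 55 Wnt pathway genes the genotype ratio was called in opposite directions in different pairs. None of these differences was tested, since each pair holds 1 library per group. The log2 ratio of Sfrp1 in E14.5 epithelium exceeded that in E12.5 mesenchyme by 2.64 (-1.12 in mesenchyme, 1.52 in epithelium). For Frzb the difference between the same pairs was -3.09 (1.73 in mesenchyme, -1.37 in epithelium). For Rspo1 the log2 ratio in E12.5 epithelium exceeded that in E12.5 mesenchyme by 3.89 (-2.85 and 1.04). The mesothelial marker sums beside these ratios were 292 CPM in control and 189 CPM in mutant mesenchyme, 460 and 540 CPM in E12.5 epithelium and 453 and 722 CPM in E14.5 epithelium. Krt19 is in both the mesothelial and the general epithelial list. Other marker lists differed in these pairs as well. In E14.5 epithelium the general mesenchymal sums were 6851 and 14030 CPM and the general epithelial sums 8339 and 4586 CPM. The part of any of these was not tested.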

How the results depend on the processing

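Of 520 ratios of single Wnt pathway genes under another scaling, 94 lay outside the interval of the reported ratio. No called gene changed direction, but this could not have come out otherwise. All shifts except -1.17 at E14.5 were under 2-fold, the threshold of a call. The smallest log2 ratio called higher at E14.5 was 1.48. DESeq2 size factors and plain CPM kept every genotype call; in the stage comparison of control epithelia DESeq2 lost Lef1, and plain CPM, which shifted the median of all genes by -0.15, called 24.3% of genes higher among those called against 36.9%. Scaling to the epithelial and mesenchymal medians shifted all genes by 0.96 and -1.17 at E14.5, with 97.3% and 2.41% of called genes higher against 60.1%, and by 0.14 and -0.25 in E12.5 epithelium (53.9% and 14.6% against 35.8%). In the counts that follow, brackets give all genes called the same way and all genes measured. Under the epithelial scaling 7 were higher in E12.5 epithelium (327 of 11991). In E14.5 epithelium 20 were higher and 0 lower (5390 and 148 of 12145). Under the mesenchymal scaling 1 was higher and 1 lower in E12.5 epithelium (129 and 756 of 11991). At E14.5 1 was higher and 17 were lower (195 and 7898 of 12145). With no CPM minimum, higher and lower counts were 8 and 5 in mesenchyme (896 and 1155 of 17759). They were 8 and 3 in E12.5 epithelium (1080 and 1296 of 17235) and 17 and 10 in E14.5 epithelium (2299 and 1518 of 17389). In mesenchyme against epithelium 9 were lower in control (3120 of 17320) and 15 in mutant (3077 of 18125). Between control stages 7 were higher (1733 of 17271), and between mutant stages 5 were higher and 6 lower (1783 and 1576 of 17395). With a 20 CPM minimum the higher and lower counts were 2 and 1 in mesenchyme (72 and 124 of 8648). In epithelium 2 were higher at E12.5 (44 of 9050) and 3 lower at E14.5 (445 of 9048). Between mutant fractions 4 were lower (709 of 9092). Between stages 5 were lower in control (709 of 9245) and 1 in mutant (340 of 9083). At 1.5-fold, 4 were lower in mesenchyme (1012 of 11188). In E12.5 epithelium 12 were higher and 4 lower (721 and 1260 of 11991), and 9 were lower between control fractions (2344 of 12066). Between control stages 6 were higher and 17 lower (2059 and 2753 of 12136). Between mutant stages 3 were higher and 9 lower (1566 and 1813 of 12167). No paired analysis was possible because each group holds 1 library. Depth limits genes near the floor, such as Rnf43 and Wnt7b in mesenchyme.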
